A study of Homo sapiens with 8 samples.

Results

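The centrosomal (CEP) and kinesin (KIF) gene families were examined in 2 lists of m6A peaks from chromosome-associated RNA. Members were all protein-coding genes whose symbol is CEP or KIF followed by a number, with or without further letters or digits. The rule found 39 CEP genes and 39 KIF genes, 78 of the 20056 protein-coding genes in the RefSeq table of GRCh38.p14. A peak was credited to a gene when it overlapped the gene bounds by at least 1 bp, on either strand.

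The cells were of HEK293T, a widely used established line derived from human embryonic kidney, with METTL3 knocked out (METTL3-/-) or parental (wild type). METTL3 is the enzyme subunit of the methyltransferase complex that places N6-methyladenosine (m6A) on messenger RNA. No other treatment or allele is given in the labels, nor whether the knockout line is 1 clone. RNA from the chromosome fraction was cleared of DNA and rRNA, m6A-containing RNA was enriched by immunoprecipitation (IP), and strand-specific libraries were sequenced for the IP and for the input. There were 2 replicates each of knockout IP, knockout input, wild-type IP and wild-type input, 8 libraries in all, but the deposited data used here are 1 peak list per genotype.

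Each list therefore gives 1 value per peak or gene, with no spread between replicates and no test of genotype, and all differences below describe these 2 lists. The knockout list held 23937 peaks and the wild-type list 29084. Within the bounds of METTL3 there were 0 knockout and 2 wild-type peaks. The fold of a peak is the peak caller's ratio, at the summit, of IP over local input. Library totals are not given in the files. The fold and p-value of each peak gave the lowest local input and the scaling of IP reads in each list. From these, the knockout IP depth was estimated at 1.169 times (plus strand) and 1.2 times (minus strand) that of wild type. The knockout input depth was estimated at 0.923 and 0.918 times. These ratios assume the same peak-caller settings for the 2 lists, which are not given.

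CEP proteins build and maintain the centrosome, the main microtubule-organizing centre of animal cells, and the basal body from which a cilium grows. Some start or lengthen centrioles, some form the appendages that anchor microtubules or dock the mother centriole at the membrane, and some link the 2 centrioles of a pair. KIF proteins are kinesins, motors that use ATP to walk along microtubules with cargo, slide them in the spindle or shorten their ends. Many genes of both families are long, so that chromosome-associated RNA, which is rich in unfinished transcripts, can offer long stretches of intron in which a peak may lie.

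In both lists more CEP genes than KIF genes carried a peak, and CEP genes held about 2 peaks for each KIF peak. Of the 39 CEP genes, 32 had a knockout peak and 34 a wild-type peak (82.1% and 87.2%). Of the 39 KIF genes, 25 had a knockout peak and 28 a wild-type peak (64.1% and 71.8%). Over all protein-coding genes the shares were 34.8% in the knockout list and 39.6% in the wild-type list. Both families are longer than usual, with a median gene length of 64.3 kb for CEP, 56.4 kb for KIF and 24.1 kb for all protein-coding genes, and over all protein-coding genes the share with a knockout peak ran from 13.6% under 20 kb to 74.5% over 200 kb.

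Peaks in CEP genes numbered 161 in the knockout list and 155 in the wild-type list, which is 4.10 and 3.94 peaks per 100 kb of gene. KIF genes had 73 knockout and 75 wild-type peaks, or 1.94 and 1.99 per 100 kb. All protein-coding genes together had 18215 knockout and 22661 wild-type peaks, or 1.41 and 1.75 per 100 kb. There were thus 103.9 knockout peaks per 100 wild-type peaks in CEP genes, 97.3 in KIF genes and 80.4 in all protein-coding genes. The higher density of CEP over KIF genes was present in each length class from 20 kb up. In genes of 20 to 50 kb, the knockout list had 5.71 peaks per 100 kb in 14 CEP genes, 2.90 in 11 KIF genes and 1.92 over all protein-coding genes, and the wild-type list had 5.89, 2.90 and 2.37. KIF genes also lay above all protein-coding genes in the classes from 20 to 200 kb, and below them in the 4 KIF genes over 200 kb. Whether a peak is called depends on how much of an RNA was present as well as on its methylation, and the lists hold no expression levels, so the part of RNA amount in these densities was not tested. Whether the peaks called in the METTL3 knockout mark m6A was not tested either.

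**Figure D1:**
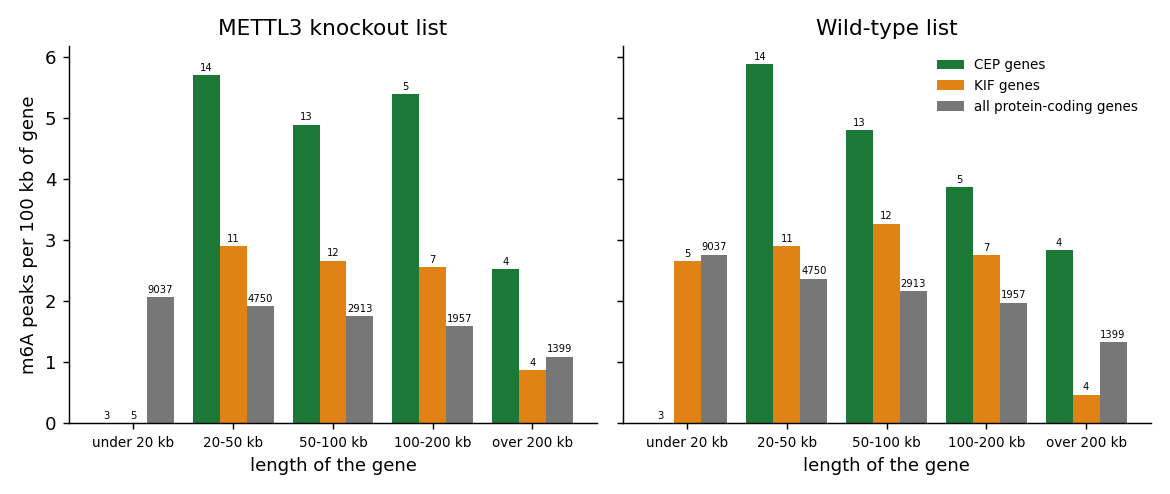
m6A peaks per 100 kb of gene (vertical axis) in 5 classes of gene length (horizontal axis), for the METTL3 knockout list on the left and the wild-type list on the right; the number over a bar is the number of genes. CEP genes stood above KIF genes in both lists in every class from 20 kb up, and in the shortest class the 3 CEP genes had no peak.

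The number of peaks differed between the genes of each family. The 6 CEP genes with the most peaks, CEP128, CEP112, CEP350, CEP290, CEP170 and CEP83, held 44.7% of the CEP peaks of the knockout list and 43.9% of those of the wild-type list. The 6 leading KIF genes, KIF21A, KIF20B, KIF4A, KIF15, KIF1B and KIF26B, held 52.1% and 42.7% of the KIF peaks of the knockout and wild-type lists. These genes were picked for their number of peaks, and their share of gene length was not worked out. CEP112 and CEP128, the longest CEP genes, had 2.16 and 3.73 knockout peaks per 100 kb, below the 4.10 of all CEP genes. CEP350, CEP290, CEP170 and CEP83 lay above it, with 8.12, 10.7, 7.61 and 4.62. The median CEP gene had 3 peaks in each list and the median KIF gene 1. There were 12 members with no peak in either list, namely CEP15, CEP19 and CEP295NL, which are 5.97 to 17.2 kb long, and KIF12, KIF17, KIF19, KIF21B, KIF22, KIF25, KIF2B, KIF4B and KIF9, which are 2.27 to 56.4 kb long.

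**Figure D2:**
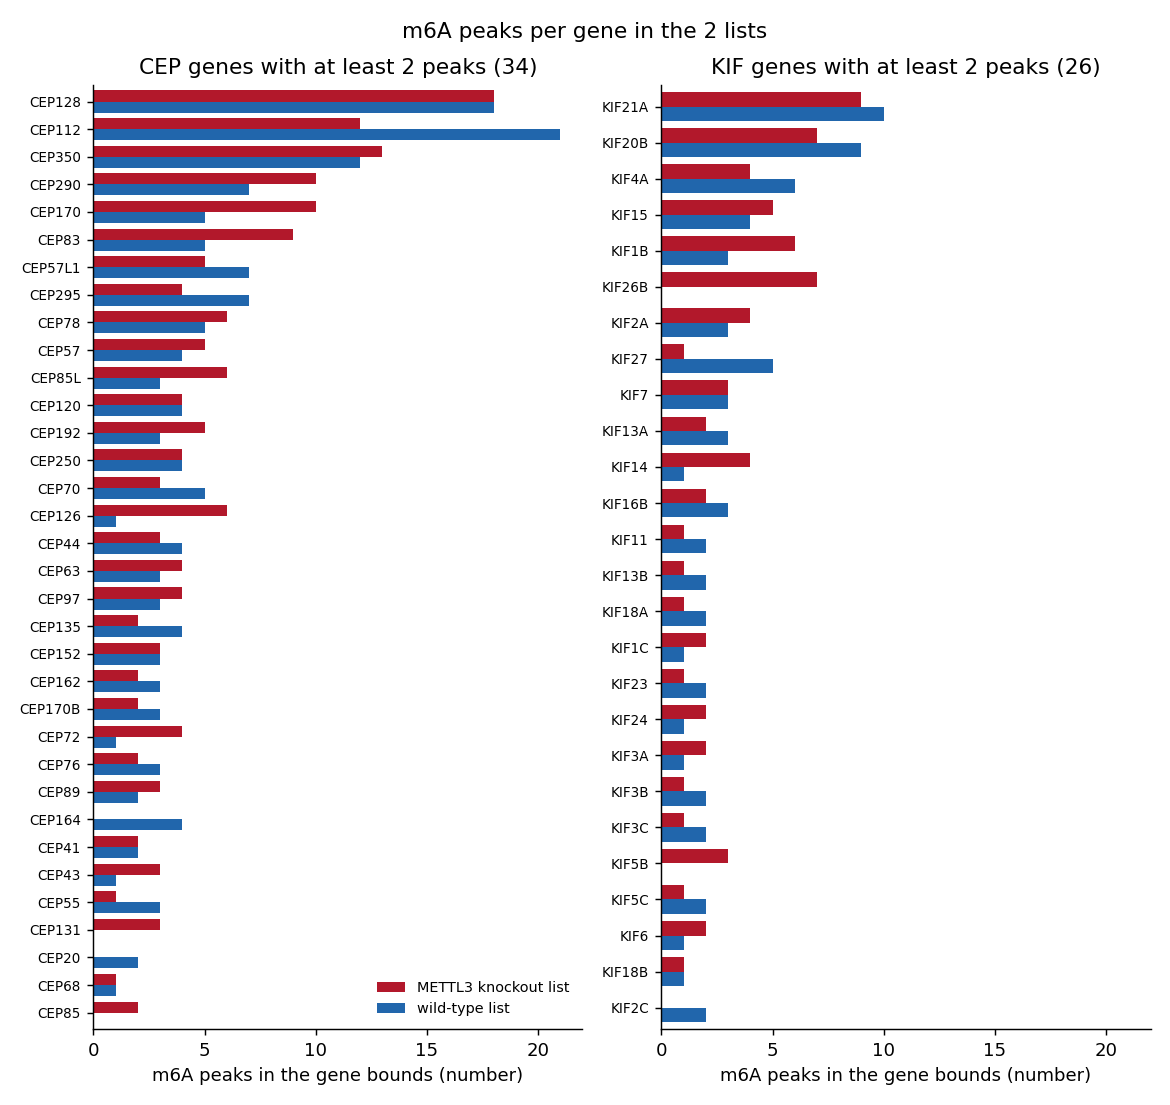
Number of m6A peaks (horizontal axis) in each CEP gene (left) and KIF gene (right) with at least 2 peaks over both lists, in the METTL3 knockout list (red, upper bar) and the wild-type list (blue, lower bar). CEP112 reached 12 and 21 peaks, KIF26B had 7 peaks in the knockout list and none in the wild-type list, and members with fewer peaks are not drawn.

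By role, the 13 CEP genes of centriole duplication and elongation had 49 knockout and 50 wild-type peaks. The 12 genes of the appendages, the transition zone and the cilium had 53 knockout and 46 wild-type peaks, and the 7 genes of the centriole linker, microtubule anchoring and satellites had 37 and 26. In that group 4 genes had more knockout peaks and 1 more wild-type peaks. The 6 other CEP genes, CEP112 among them, had 21 knockout and 30 wild-type peaks, and CEP55, a protein of abscission at the end of cell division, had 1 and 3. Among kinesins, the 6 kinesin-4 genes had 17 knockout and 24 wild-type peaks and the 3 kinesin-6 genes 8 and 12, and no gene of either subfamily had more knockout than wild-type peaks. Of the kinesin-4 genes, 2 had no peak, and the counts include 3 knockout and 3 wild-type peaks of KIF7, all opposite to its strand. These groups are small, and over all protein-coding genes with a peak 31.8% had more knockout peaks and 51% more wild-type peaks. The 7 kinesin-3 genes, transport motors apart from KIF14, had 17 and 14.

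The number of peaks was also compared gene by gene. Of 36 CEP genes with a peak, 16 had more in the knockout list and 14 more in the wild-type list, and of 30 KIF genes 10 had more in the knockout list and 18 more in the wild-type list. These are 44.4% and 38.9% of the CEP genes and 33.3% and 60% of the KIF genes. Over all protein-coding genes with a peak, 31.8% had more in the knockout list and 51% more in the wild-type list, so the KIF genes lay near the background. A knockout excess of 4 peaks or more was found in 3 CEP genes (CEP126, CEP170 and CEP83) and in KIF26B, against 1.95% of all protein-coding genes with a peak. A wild-type excess of that size was found in CEP112, CEP164 and KIF27, against 5.53%. Long genes with many peaks can reach such a difference more easily, and the background was not matched for peak number.

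Most peaks of both families lay at places that the other list did not call. A peak was counted as shared when it and a same-strand peak of the other list had 1 bp or more in common. In CEP genes 36 of 161 knockout peaks were shared, 22.4% (95% Clopper-Pearson interval 16.2 to 29.6), and 36 of 155 wild-type peaks, 23.2% (16.8 to 30.7). In KIF genes 18 of 73 knockout peaks were shared, 24.7% (15.3 to 36.1), and 18 of 75 wild-type peaks, 24.0% (14.9 to 35.3). Over all protein-coding genes 26.5% of knockout and 21.3% of wild-type peaks were shared, within all 4 intervals, which cover counting error only. By strand, CEP knockout peaks were shared in 22.7% on the plus and 22.1% on the minus strand, and KIF knockout peaks in 26.3% and 22.9%. An unshared CEP knockout peak lay a median of 5130 bp from the nearest same-strand wild-type peak in the same gene. An unshared CEP wild-type peak lay a median of 5790 bp from the nearest such knockout peak. For KIF genes these distances were 15762 and 10082 bp. Unshared peaks with no such peak in their gene were left out. This left 120 of 125 knockout and 108 of 119 wild-type peaks in CEP genes, and 45 of 55 and 49 of 57 in KIF genes. KIF genes had fewer peaks per 100 kb, and no distance over all protein-coding genes was worked out.

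The share of shared peaks was highest in the class with the most IP reads. The median CEP peak rested on 43 IP reads in the knockout list and 32.5 in the wild-type list, and the median KIF peak on 33 and 27. Of peaks with over 60 IP reads, KIF genes shared 9 of 15 in the knockout list (60%) and 8 of 11 in the wild-type list (72.7%). CEP genes shared 19 of 51 knockout peaks of that class, 37.3% (24.1 to 51.9), and 14 of 28 wild-type peaks, 50% (30.6 to 69.4). All protein-coding genes shared 56.2% of such peaks in the knockout list and 56.5% in the wild-type list. Of peaks with 16 to 30 IP reads, CEP genes shared 12.8% in the knockout list and 4.26% in the wild-type list, KIF genes 15.4% and 7.41%, and all protein-coding genes 13.5% and 12.002%. CEP peaks with up to 15 reads were few. They were shared in 2 of 9 cases in the knockout list and 4 of 17 in the wild-type list. KIF genes shared 0 of 7 such peaks in the knockout list and 1 of 13 in the wild-type list. All protein-coding genes shared 5.78% and 5.32%. The CEP wild-type interval of this class, 6.81 to 49.9, lies above the value for all protein-coding genes. The CEP knockout interval of this class includes that value. For peaks with over 60 reads, the CEP knockout interval lies below the value for all protein-coding genes, while the CEP wild-type interval includes it. Peaks of 1 gene are not independent of each other, which these intervals do not take into account.

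CEP128, a protein of the subdistal appendages that anchor microtubules at the mother centriole, had the most peaks of any member over both lists together. The gene spans 482.5 kb of chromosome 14, from 80476969 to 80959502 on the minus strand. It had 18 knockout and 18 wild-type peaks, all on the gene's own strand, and 6 of each were shared. Folds ran from 3.33 to 14.6 in the knockout list and from 3.57 to 19.7 in the wild-type list. The strongest knockout peak, at 80625711 to 80626035, had a fold of 14.6 on 198 IP reads, and its wild-type partner a fold of 3.99 on 54. The strongest wild-type peak, at 80862794 to 80863039 with a fold of 19.7 on 67 IP reads, had no knockout partner. Of the 6 shared places, 4 had the higher fold in the knockout list and 2 in the wild-type list.

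CEP112, a coiled-coil centrosomal protein, had 12 knockout and 21 wild-type peaks and not one of them was shared. The gene spans 556.6 kb of chromosome 17, from 65635537 to 66192133 on the minus strand, and all 33 peaks were on that strand. The nearest pair, a knockout peak at 66141057 to 66141315 and a wild-type peak at 66141655 to 66141854, lay 339 bp apart. Of the 166 protein-coding genes with at least 10 peaks in each list, 6 (3.61%) shared none, and CEP112 was the only one of the 3 members of that size. Its peaks rested on few reads, with a median of 23.5 IP reads in the knockout list and 22 in the wild-type list, against 60.5 and 41.5 in CEP128. The part of this low read support in the lack of shared places was not tested.

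CEP350 and CEP290 had many peaks, most of them unshared. Most peaks were also unshared over all protein-coding genes, where 26.5% of knockout and 21.3% of wild-type peaks were shared. CEP350, which anchors microtubules and stabilizes centrioles, had 13 knockout and 12 wild-type peaks, of which 3 were shared. Its strongest knockout peak, at 180006291 to 180006519 on chromosome 1, had a fold of 16.8, and its strongest wild-type peak, at 179988113 to 179988329, a fold of 12.3, and neither had a partner. At the 3 shared places of CEP350 the folds were 7.56, 9.44 and 3.81 in the knockout list, against 3.06, 9.17 and 10.6 in the wild-type list, so that 1 place was higher in the knockout, 1 was similar and 1 was higher in wild type. CEP290, a scaffold of the ciliary transition zone that is mutated in several ciliopathies, had 10 knockout and 7 wild-type peaks and 1 shared place, with folds of 5.77 in the knockout list and 6.15 in the wild-type list.

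CEP170, which marks subdistal appendages, had more peaks in the knockout list, and most of its few wild-type peaks were shared. It had 10 knockout and 5 wild-type peaks, the latter on a median of 71 IP reads. Over all protein-coding genes, 56.5% of wild-type peaks with over 60 IP reads were shared. In CEP170, 4 of the 5 wild-type peaks were shared. At those 4 places, folds in the knockout list were 14.03, 11.7, 7.76 and 3.76, against 4.65, 4.52, 4.16 and 4.97 in the wild-type list. The first 3 places were higher in the knockout list and the fourth was higher in the wild-type list. At the place with a knockout fold of 11.7, IP reads were 78 in the knockout list and 101 in the wild-type list, while local input was 2 scaled reads in the knockout and 12 in wild type. CEP83, a distal appendage protein needed for a centriole to dock at the membrane, had 9 knockout and 5 wild-type peaks, with 1 shared. CEP126, which organizes microtubules at the base of the cilium, had 6 knockout peaks with folds of 6.65 to 16.5 and 1 wild-type peak, which was shared, with a fold of 6.79.

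**Figure D3:**
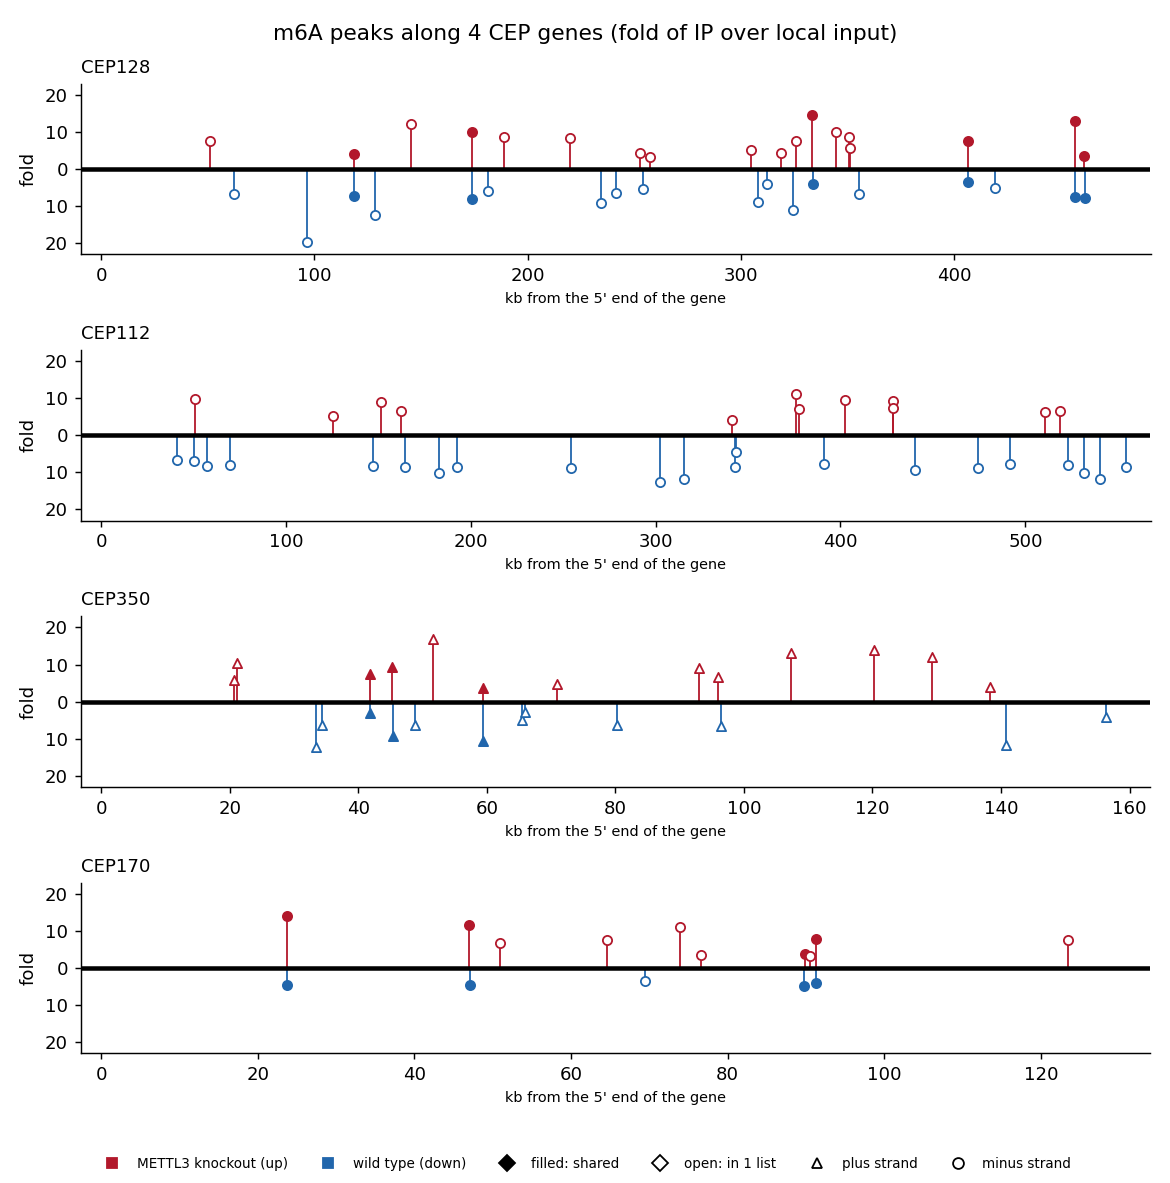
m6A peaks along 4 CEP genes, by distance from the 5′ end of the gene in kb (horizontal axis) and fold of IP over local input (vertical axis), with METTL3 knockout peaks upward in red and wild-type peaks downward in blue. Filled symbols are shared peaks, triangles the plus and circles the minus strand. All CEP112 symbols are open, and 4 of the 5 wild-type peaks of CEP170 are filled.

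Some CEP genes had peaks in 1 list only. There were 2 with knockout peaks only, CEP131 and CEP85, which is 2 of the 32 CEP genes with a knockout peak, where 23.6% of all protein-coding genes with a knockout peak had no wild-type peak. That background is not matched for peak number: it was 37.8% in genes with 1 knockout peak, 8.80% with 3 to 5 and 1.46% with 6 to 10. CEP131, a centriolar satellite protein, had 3 knockout peaks with folds of 7.47, 7.69 and 7.06, the last on the strand opposite to the gene. CEP85, a protein that acts in centriole duplication, had 2, with folds of 6.86 and 10.1. With wild-type peaks only there were 4 of the 34 CEP genes with a wild-type peak, among them CEP164 and CEP20, where the share over all protein-coding genes was 32.8%. CEP164, the distal appendage protein through which a kinase that triggers cilium growth is recruited, had 4 wild-type peaks with folds of 6.57, 8.32, 4.52 and 9.17 on 20 to 43 IP reads. Of 1903 protein-coding genes with at least 4 wild-type peaks, 93 (4.89%) had no knockout peak.

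CEP20, a small protein of centrioles and the ciliary base, had 2 wild-type peaks, with folds of 6.51 and 8.85, and no knockout peak. The second, at 15888427 to 15888632 on the minus strand of chromosome 16, rested on 16 IP reads and met the promoter window of the gene, which runs from 250 bases before to 50 bases after the gene start. RefSeq sequences of such windows (GRCh38.p14) were used for 66 of the 78 members, and among these CEP20 was the only one whose window met a peak of either list, which is why it is shown. Capitals mark the 79 bases under the peak, of which 29 lie upstream of the annotated start, and the sequence is chr16:15888554-15888853, minus strand, 5′ to 3′.
CEP20: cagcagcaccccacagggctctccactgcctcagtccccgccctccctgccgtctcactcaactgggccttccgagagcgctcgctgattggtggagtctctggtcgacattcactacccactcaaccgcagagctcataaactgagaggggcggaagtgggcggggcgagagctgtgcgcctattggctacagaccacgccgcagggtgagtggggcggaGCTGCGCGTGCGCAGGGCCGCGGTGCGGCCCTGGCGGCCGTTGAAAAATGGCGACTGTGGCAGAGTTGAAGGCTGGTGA
The covered part was 68.4% G and C. The core of the m6A motif in its commonest form, GGAC, was absent from the window on the gene's strand and occurred 1 time on the other strand, outside the covered part. Of 35116 RefSeq promoter windows of the same length, 66.32% held GGAC on the gene's strand, 66.1% on the other and 87.37% on either. The rest of the peak, downstream of the window, could not be read here.

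In the 66 members with a known strand, few peaks lay near the ends of the gene, as was also the case over all protein-coding genes. Of the peaks on the gene's own strand, 0 of 205 knockout and 2 of 201 wild-type peaks lay within 500 bp of the gene start, and 1 and 1 within 500 bp of the gene end. Over all protein-coding genes, 1.56% of knockout and 1.99% of wild-type peaks lay that near the start, and 0.83% and 0.99% that near the end. The median position along the gene, from 0% at the start to 100% at the end, was 59.2% for knockout and 49.7% for wild-type peaks of CEP genes, and 50.1% and 63.6% for those of KIF genes. Over all protein-coding genes it was 51.6% in the knockout list and 50.9% in the wild-type list. Exon positions were not used here, so exonic and intronic peaks were not separated.

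The strongest unshared CEP peaks lay in the following genes. CEP152, which recruits the kinase that starts centriole duplication, had an unshared knockout peak with a fold of 20.9 on 94 IP reads at 48762479 to 48762807 on chromosome 15. Its wild-type peaks at other places had folds of 9.30, at a distance of 4260 bp, and 15.4, and the one shared place of CEP152 had nearly equal folds, 2.73 in the knockout list and 2.69 in the wild-type list. CEP44, which acts in the conversion of centrioles to centrosomes, had an unshared wild-type peak with a fold of 20.4 on 79 IP reads, at 174306967 to 174307509 on chromosome 4. At the 2 shared places of CEP44 the fold was higher in the knockout list, 10.1 against 5.33 in wild type and 7.06 against 4.65. IP reads there were lower in the knockout list, 32 against 51 in wild type and 48 against 52. Local input was also lower, 0.62 scaled reads against 5 and 2.4 against 6. The second pair overlapped by 24 bp, with summits 175 bp apart. CEP250, a protein of the linker between centrioles, had 4 knockout and 4 wild-type peaks with none shared, and its strongest was a knockout peak with a fold of 17.5. Of all protein-coding genes with at least 3 peaks in each list, 19.8% shared none. CEP135, a component of the centriole wall and cartwheel, had an unshared wild-type peak with a fold of 19.0 and a shared place with folds of 5.94 in the knockout list and 16.2 in the wild-type list.

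KIF21A, a kinesin-4 that restrains microtubule growth, had the most peaks among the KIF genes. It spans 149.9 kb of chromosome 12, from 39293228 to 39443120 on the minus strand, and had 9 knockout and 10 wild-type peaks, all on its own strand and 3 of each shared. Its strongest peak was an unshared knockout peak at 39341556 to 39341804, with a fold of 19.8 on 61 IP reads. Wild-type folds of KIF21A did not exceed 10.9. At the shared places the folds were 12.1, 6.34 and 4.23 in the knockout list, against 10.2, 9.37 and 8.51 in the wild-type list.

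KIF20B, a kinesin-6 that works in the last steps of cell division, had the most shared places of the KIF genes. It had 7 knockout and 9 wild-type peaks in 73.3 kb of chromosome 10, and 5 of each were shared. From the 5′ end, the folds at these 5 places were 4.16, 3.13, 13.1, 6.40 and 7.29 in the knockout list, against 3.51, 4.84, 7.15, 9.98 and 18.4 in the wild-type list. The place with a wild-type fold of 18.4 is the strongest shared wild-type peak of any KIF gene. Its IP reads were 74 in the knockout list and 59 in the wild-type list, and its local input 4 scaled reads in the knockout and 1 in wild type.

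KIF26B had 7 knockout peaks and no wild-type peak. It is a kinesin-11, a subfamily that has lost motor activity, and is known for its part in kidney development. The gene spans 554.4 kb of chromosome 1, from 245154985 to 245709432. Its 7 peaks had folds of 5.13 to 19.4 on 11 to 48 IP reads, and 3 were on the plus and 4 on the minus strand. Local input was at the lowest value of its strand at all 7, so that each fold is set against that minimum. The strand of KIF26B is not in the promoter table used here, but peaks on both strands cannot all belong to its own transcript. One plus-strand peak, at 245155011 to 245155476, lay next to the lower bound of the gene. The strongest, with a fold of 19.4 on 48 IP reads, lay on the minus strand at 245270142 to 245270520. Of 550 protein-coding genes with at least 7 knockout peaks, 10 (1.82%) had no wild-type peak.

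The other kinesins with many peaks had at most 1 shared place each. Over all protein-coding genes 26.5% of knockout and 21.3% of wild-type peaks were shared. KIF4A, a chromokinesin that shortens spindle midzone microtubules, had 4 knockout and 6 wild-type peaks with none shared, and its strongest was a knockout peak with a fold of 17.2. Of 1573 protein-coding genes with at least 3 peaks in each list, 311 (19.8%) shared none, as did 6 of the 26 members of that size. KIF15, a spindle kinesin-12, had 5 knockout and 4 wild-type peaks, and its shared place had folds of 8.14 in the knockout list and 14.04 in the wild-type list. KIF1B, a transport motor for mitochondria and synaptic vesicle precursors, had 6 knockout and 3 wild-type peaks, with 1 shared place at folds of 4.74 in the knockout list and 5.64 in the wild-type list. KIF14, a motor of cytokinesis, had 4 knockout peaks and 1 wild-type peak, which was shared. KIF27, a kinesin-4 linked to motile cilia, showed the opposite, with 1 knockout peak, which was shared, and 5 wild-type peaks.

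KIF genes with peaks in 1 list only were 2 of the 25 with a knockout peak, KIF26B and KIF5B, and 5 of the 28 with a wild-type peak, KIF2C, KIF1A, KIF20A, KIF26A and KIF5A. Over all protein-coding genes these shares were 23.6% and 32.8%, a background not matched for peak number. KIF5B, the ubiquitous heavy chain of conventional kinesin, had 3 knockout peaks with folds of 4.74, 8.55 and 5.91 on 15 to 41 IP reads. KIF2C, a kinesin-13 that depolymerizes microtubules at kinetochores, had 2 wild-type peaks with folds of 6.47 and 8.94. KIF5A, the neuronal paralogue of KIF5B, had a single wild-type peak with a fold of 13.7 on 51 IP reads, the highest among unshared wild-type peaks of KIF genes. KIF13B had 2 wild-type peaks, with folds of 12.3 and 9.13, and 1 knockout peak with a fold of 5.90, none of them shared. With 1 exception, KIF2C, the wild-type-only KIF genes had 1 peak each. Of the 10 KIF genes with exactly 1 wild-type peak, 4 had no knockout peak, where the share over all protein-coding genes was 52.4%.

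Strand was given for 66 members, and nearly all of their peaks lay on the strand of the gene. In CEP genes these were 144 of 149 knockout and 138 of 142 wild-type peaks, and in KIF genes 61 of 64 and 63 of 67. Over all protein-coding genes 91.4% of knockout and 92% of wild-type peak assignments were on the strand of the gene. There were 8 peaks on the opposite strand in each list, and KIF7 accounted for 3 of the 8 in each.

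KIF7, a kinesin-4 of the cilium tip that controls Hedgehog signalling, had no peak on its own strand. KIF7 lies on the minus strand of chromosome 15, and its 3 knockout and 3 wild-type peaks were all on the plus strand. The plus-strand neighbour TICRR, a gene of replication initiation, spans 89575469 to 89628023, and 5 of the 6 peaks lay 1602 to 7265 bp beyond that end. The sixth, a wild-type peak at 89623770 to 89624483, lay within TICRR. One place was shared, with folds of 6.30 in the knockout list and 2.85 in the wild-type list. TICRR itself had 0 knockout and 2 wild-type peaks. Whether the KIF7 peaks come from RNA running on past TICRR was not tested. CEP76, a minus-strand gene, had both of its knockout peaks and 1 of its 3 wild-type peaks on the plus strand, within the bounds of the overlapping gene PSMG2. Unlike KIF7, it also had 2 wild-type peaks on its own strand, and these lay within the bounds of PSMG2 as well. The other members with a peak opposite to their strand were CEP131, CEP295, CEP57, CEP63 and KIF4A.

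**Figure D4:**
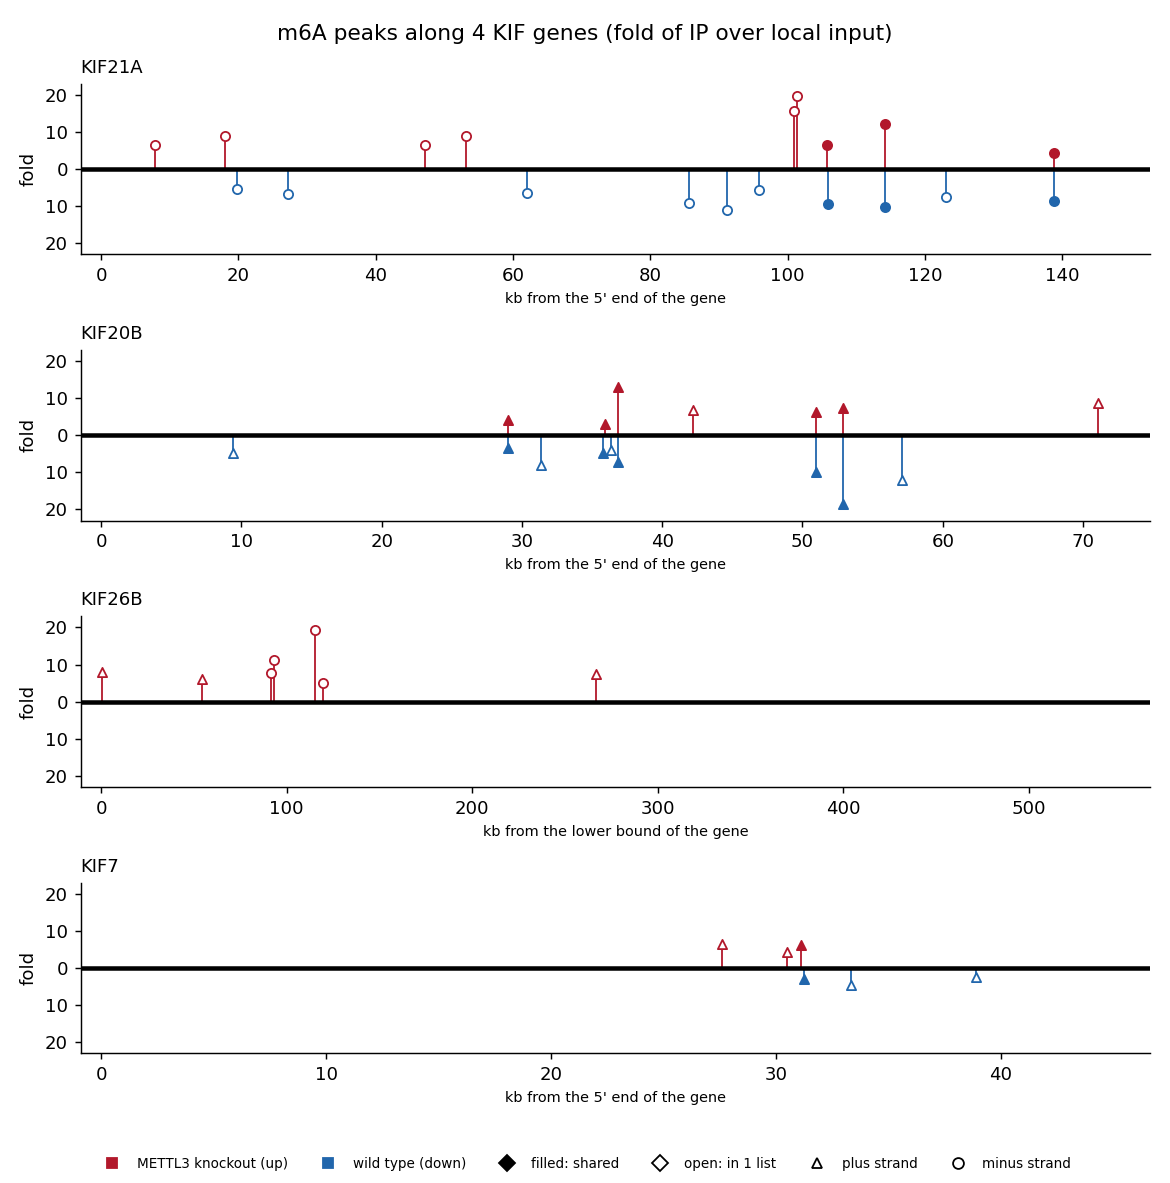
m6A peaks along 4 KIF genes, by distance in kb from the 5′ end of the gene, or for KIF26B from its lower bound (horizontal axis), and by fold of IP over local input (vertical axis), with METTL3 knockout peaks upward in red and wild-type peaks downward in blue. Filled symbols are shared peaks, triangles the plus and circles the minus strand. KIF26B has symbols upward only, on both strands, and all KIF7 symbols are triangles although the gene is on the minus strand.

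The fold at shared places was compared by pairs. The 36 CEP pairs had a median log2 ratio of knockout over wild-type fold of 0.09 (quartiles -0.64 and 0.69), with 20 pairs higher in the knockout list. The 18 KIF pairs had a median of -0.55 (quartiles -0.95 and 0.23), with 6 higher and 12 lower in the knockout list. Over all 4862 pairs in protein-coding genes the median was 0.02 and 51.1% were higher in the knockout list. The 95% intervals of the medians, which treat pairs as independent, were -0.40 to 0.56 for CEP and -1.01 to 0.25 for KIF, so both included 0 and they overlapped. By gene, 5 of the 18 KIF pairs came from KIF20B and 6 of the 36 CEP pairs from CEP128, and no test was made over pairs. The fold depends on the depth of IP and input, which by the estimates above differed between the lists.

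The recovered reads give the IP and the input part of these ratios separately. In reads scaled for depth, the median log2 ratio of knockout over wild type across the 18 KIF pairs was -0.17 for IP and 0.42 for local input, and IP was lower in the knockout at 11 of them and input higher at 12. Across the 33 CEP pairs with recovered reads it was -0.05 for IP and 0.00 for input. Over all pairs in protein-coding genes with recovered reads it was -0.02 for IP and -0.09 for input, and input was higher in the knockout at 2143 of 4550.

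A change of at least 1 log2 unit was found in 7 pairs toward the knockout and 11 toward wild type. Toward the knockout there were 6 of 36 CEP pairs and 1 of 18 KIF pairs, where 11% of all pairs in protein-coding genes were that far apart. Toward wild type there were 6 CEP and 5 KIF pairs, where the share over all pairs was 10.3%. The most extreme were a CEP41 pair, with folds of 3.96 in the knockout list and 15.2 in the wild-type list, and a KIF1C pair, with 2.94 and 11.2. CEP41 takes part in the glutamylation of ciliary tubulin, and KIF1C is a fast transport motor of the kinesin-3 subfamily. At the CEP41 place IP reads were 70 in the knockout list and 37 in the wild-type list, and local input 7 scaled reads in the knockout and 0.46 in wild type. At the KIF1C place IP reads were nearly equal, 139 in the knockout list and 146 in the wild-type list, and local input was 22 in the knockout and 7 in wild type. The motor subunits of the kinesin-2 that carries cargo into cilia, KIF3A and KIF3B, each had a pair in the same direction. Their folds were 4.62 and 3.55 in the knockout list, against 11.7 and 10.0 in the wild-type list. IP reads were 61 and 109 in the knockout list, against 68 and 114 in the wild-type list. Local input was 5 and 14 scaled reads in the knockout, against 2.4 and 6 in wild type.

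**Figure D5:**
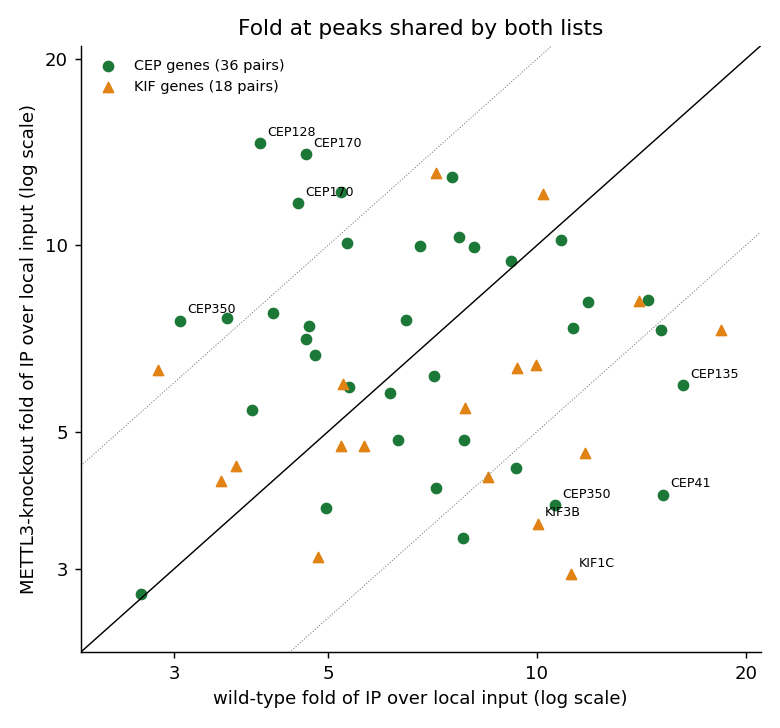
Fold of IP over local input at places called in both lists, METTL3 knockout on the vertical and wild type on the horizontal axis, both on log scales, for 36 CEP pairs (circles) and 18 KIF pairs (triangles). The solid line marks equal folds and the dotted lines a log2 difference of 1; 12 of the 18 KIF pairs lie below the solid line, and 20 of the 36 CEP pairs above it.

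Genes of the same structures outside the 2 families are given for comparison, and the intervals of their shares overlapped those of the CEP and KIF genes. In a list of 44 other centriole, pericentriolar and gamma-tubulin genes, 43 were in the RefSeq table under the symbol used. Of these, 33 had a knockout peak and 33 a wild-type peak, with 122 and 129 peaks, of which 29.5% (21.6 to 38.4) and 27.9% (20.4 to 36.5) were shared. Their density was 3.69 knockout and 3.90 wild-type peaks per 100 kb of gene, against 4.10 and 3.94 in CEP genes. The leading genes were PIBF1 with 14 knockout and 20 wild-type peaks, ALMS1 with 17 and 12, SCLT1 with 13 and 12 and AKAP9 with 8 and 10. In a list of 40 other motors, light chains and motor regulators, 25 genes had a knockout peak and 29 a wild-type peak, with 96 and 109 peaks, of which 32.3% (23.1 to 42.6) and 28.4% (20.2 to 37.9) were shared. The density of this list was 3.03 knockout and 3.44 wild-type peaks per 100 kb, above the 1.94 and 1.99 of KIF genes. The kinesin CENPE, whose symbol the family rule does not take, had 11 knockout and 16 wild-type peaks with 9 shared places, more than any KIF gene. DYNC2H1, the motor of ciliary dynein, had 16 knockout and 19 wild-type peaks, BICD1 had 11 and 16, and DYNC2I1 had 6 and 4.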

How the data were processed

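Peak lists were taken as deposited, 1 per genotype; MACS2 2.2.7.1, HISAT2 2.2.1, SAMtools 1.15.1 and build hg38 are named in the submitters' processing notes, and the order, settings and pooling of replicates are not given in the sources used here. The authors' fold column is a linear ratio, taken at the summit, of IP over local input. The deposited −log10 p-value and −log10 q-value columns are the peak caller's; the lowest −log10 q was 2.02 in the knockout list and 2.01 in the wild-type list. The deposited score column was not used.

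Overlaps (Python 3.11.15 with pandas 2.3.3, numpy 2.4.6, SciPy 1.17.1; matplotlib 3.10.9 for plots) were computed from RefSeq gene bounds; gene strands came from the RefSeq promoter table (66 of 78 members). No test across samples was possible, so values stand beside those of all protein-coding genes. Intervals cover counting error only.

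IP reads and local input were recovered from MACS2's formulas, fold = (IP + 1) / (input + 1) with a Poisson p-value, taking IP as a whole number of reads times a scale per list and strand (0.479 and 0.438 in the knockout list, 0.607 and 0.572 in the wild-type list, plus and minus strand). Peaks with a single solution were used (92.7% of knockout and 94.11% of wild-type peaks), and the procedure was checked on simulated data. The simulated local inputs all lay above the lowest values of the lists, so recovery at those values, as in KIF26B, was not checked. Local input is in reads after the peak caller's scaling.

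Genes were named by a rule: in each family the 6 with the most peaks, the leading 2 with peaks in each list only, the 3 of highest fold among shared, knockout-only and wild-type-only peaks, and the 2 with the largest excess in each direction. KIF7, CEP76, KIF1C, KIF3A, KIF3B and the remaining names were chosen after their values were seen. One item is not reported by name here. The members and lists were chosen with earlier results of these data known. Alternatives changed the overlap rule, the peak threshold, the list length and the gene assignment.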

Additional observations from a re-analysis of the deposited data

How the results depend on the processing

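Over 22 results, 201 values were recomputed under other settings (55 of them, leaving out the peaks of CEP112, CEP128, KIF7, KIF20B or KIF26B, chosen after seeing the data); 191 stayed within 1.5 times the count or within the 95% interval of the share or median, 10 moved and 0 reversed. With only peaks of fold 5 or more in both lists, the share of shared peaks was 12.98% in the knockout list and 13.1% in the wild-type list for CEP genes, and 13.6% and 13.3% for KIF genes, against 19.4% and 15.7% over all protein-coding genes; by construction a pair then needs both folds past 5. Kinesins with knockout peaks only numbered 4 at that fold, 1 with peaks on the gene's strand and 1 without KIF26B. The share of KIF peaks on the gene's strand was 100% in the knockout list and 98.4% in the wild-type list without KIF7, and 100% in the wild-type list at fold 5 or more. With equal numbers of the strongest peaks from each list, knockout peaks per 100 wild-type peaks were 120.1 in CEP genes, 119.7 in KIF genes and 97.1 over all protein-coding genes. The median log2 ratio of KIF pairs was -0.53 without KIF20B.

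No paired analysis was possible because the lists hold no values per replicate, and leaving out a replicate was not possible for the same reason. Depth limits the lists at their weakest peaks: the lowest recovered support in a member was 11 IP reads in the knockout list and 7 in the wild-type list, and places under a list's threshold cannot be seen here.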
